A study of Mus musculus with 8 samples.

Results

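The mitochondrial respiratory chain was measured as 94 nuclear genes of 18193 genes on Affymetrix mouse arrays. Its members were every gene whose symbol begins with Nduf (complex I), Sdha to Sdhd or Sdhaf (complex II and its assembly factors), Uqcr (complex III), Cox4 to Cox8 (complex IV) or Atp5 (complex V). They comprised 6 core and 28 accessory subunits of complex I, 8 complex I assembly factors, 4 subunits and 4 assembly factors of complex II, 8 genes of complex III, 10 of complex IV, 7 tissue-restricted complex IV isoforms, Ndufa4 with its paralogue Ndufa4l2, and 17 genes of complex V. The members were chosen by name, not by their measured values, and each gene was represented by whichever of its probe sets was brightest on average. Ndufs6 and Ndufa11 were carried here only by probe sets that list several symbols, so they were not members, and the subunits encoded by mitochondrial DNA fall outside the prefixes.

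RNA came from mouse macrophages grown from bone marrow for 7 to 10 days in M-CSF at 10 ng/mL, the growth factor of this lineage, and selected by adherence. There were 4 groups of 2 arrays: wild-type cells unstimulated, wild-type cells with LPS, Tpl2-deficient cells unstimulated, and Tpl2-deficient cells with LPS. LPS is the toll-like receptor 4 ligand of Escherichia coli and was given at 1 μg/mL, for a time that the labels do not assign to these arrays. Tpl2, encoded by Map3k8, is a kinase upstream of MEK and ERK, and the labels describe neither the allele of the deficient mice nor whether the 2 arrays of a group, called biological replicates, came from separate animals. The p-values therefore measure only the spread between these samples.

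Complex I oxidises NADH and complex II, which is also succinate dehydrogenase of the citric acid cycle, oxidises succinate. Both pass electrons through ubiquinone to complex III and, by cytochrome c, to complex IV, and complex V makes ATP from the proton gradient that complexes I, III and IV build. Inflammatory macrophages are known for relying more on glycolysis and for accumulating succinate, which makes the succinate oxidising step a much studied one in these cells.

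Map3k8, the targeted gene, read 9.27 and 9.28 in unstimulated wild-type cells, 8.32 and 8.23 in unstimulated Tpl2-deficient cells, 11.01 and 10.91 in wild-type cells with LPS and 9.83 and 10.09 in Tpl2-deficient cells with LPS, in log2 RMA intensity, the unit of every level below. The sources used here do not say which part of the gene was altered, or whether its probe set lies there. All 8 measured macrophage markers lay above the array median (6.48 to 6.53) in every group, with group means from 8.54 to 15.14. Of 6 neutrophil markers 4 lay below it in every group, but their summed level rose with LPS, from 9.50 to 9.67 up to 10.58 to 10.75 in wild type and from 9.43 to 9.47 up to 9.88 to 10.04 in Tpl2-deficient cells (log2 of the sum, range of the 2 arrays), with S100a8 the brightest. The 3 erythroid markers lay below the array median in every group. Of 5 stromal and 5 T and NK cell markers, 2 of each list lay below it in every group, and of 3 B cell markers 2 or 3 did. Of 4 dendritic markers 2 lay below it without LPS and 1 with LPS. Their summed level went from 10.73 to 10.90 down to 10.30 to 10.38 with LPS in wild type. In Tpl2-deficient cells it went from 10.38 to 10.54 down to 9.90 to 10.08. The gap between the 3' and 5' control probe sets of Actb, a gauge of RNA integrity, was 0.81 and 0.67 without and 0.46 and 0.55 with LPS in wild type, and 0.87 and 0.90 against 0.61 and 0.68 in Tpl2-deficient cells. The part of these shifts in the results below was not tested, and in bulk RNA fewer cells of a type and less RNA per cell cannot be told apart.

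Of the members, 90 lay above the array median in all 4 groups. Ndufb4, Cox7b2 and Cox8b lay below it in all 4, so their expression was not shown by the probe sets used, and the muscle isoform Cox7a1 lay below it in 1 group. Ndufb4 is also listed on probe sets with several symbols, which the rule left out. Its dim probe set (mean level 5.03) thus does not show that the gene is silent. The median over the 90 members was 12.04 and 12.03 in unstimulated wild-type cells, 11.57 and 11.54 with LPS, 11.90 and 11.88 in unstimulated Tpl2-deficient cells, and 11.94 and 11.68 with LPS. In wild type both LPS arrays thus lay below both controls, while the arrays of LPS-treated Tpl2-deficient cells lay on either side of their own controls.

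**Figure D1:**
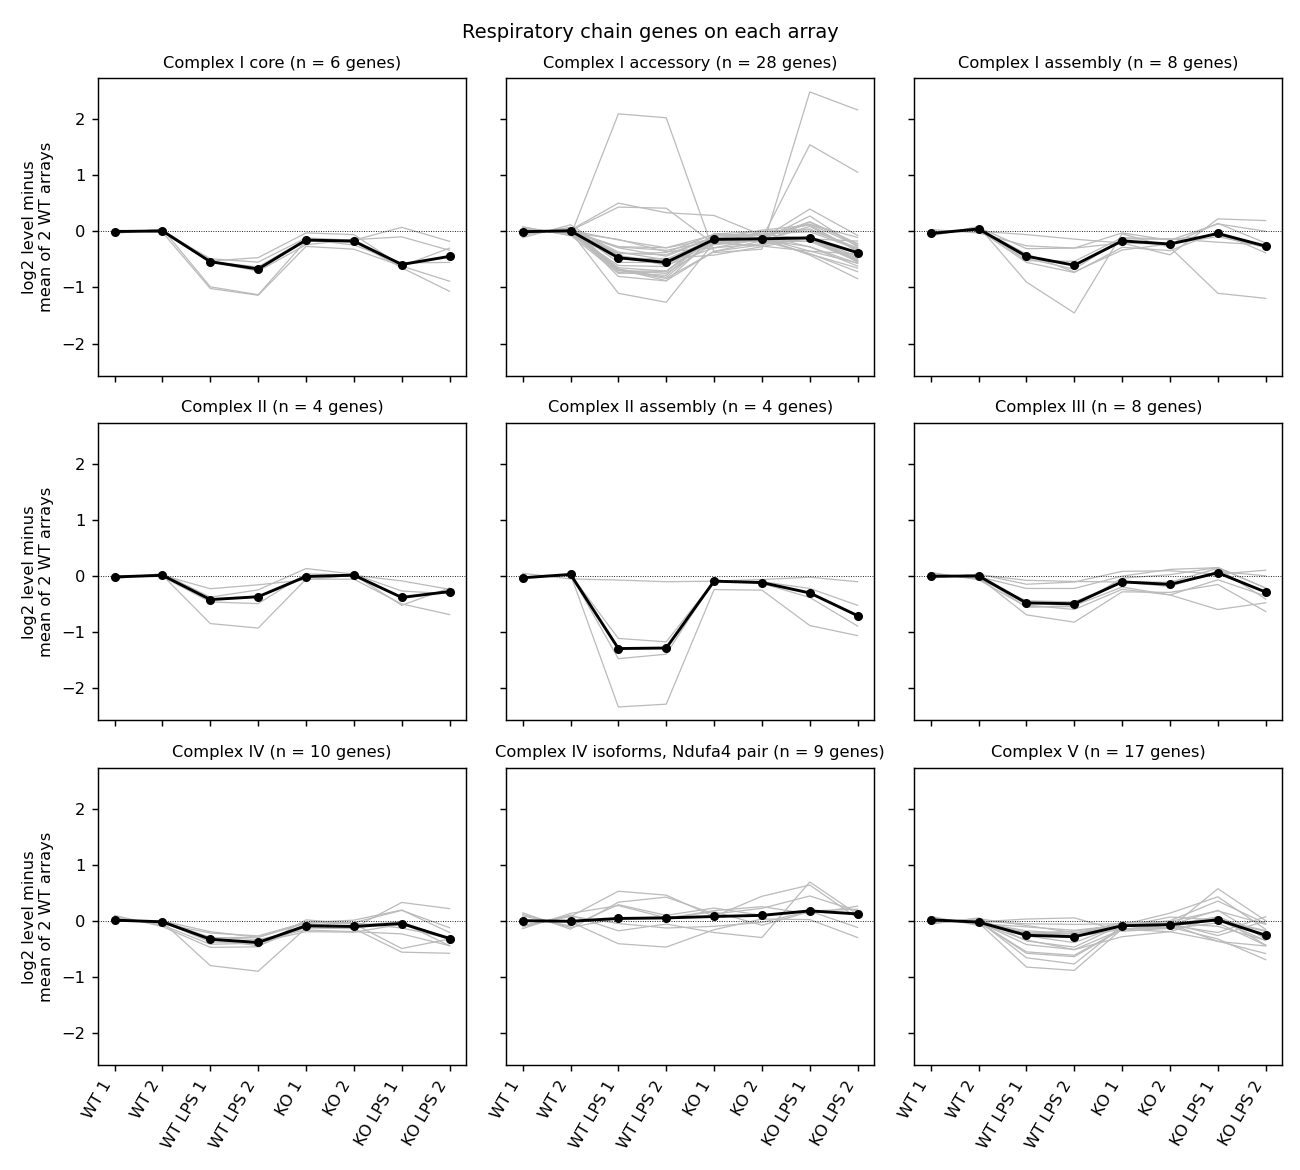
Log2 level of each member minus its mean on the 2 unstimulated wild-type arrays (y axis), on each of the 8 arrays (x axis), by complex; grey lines are single genes, black points the median over the genes of a panel, and KO stands for Tpl2-deficient. With LPS the medians dip in wild type in every complex panel except the tissue isoforms, deepest for complex II assembly factors, and the 2 KO LPS arrays differ from each other.

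The 2 arrays of LPS-treated Tpl2-deficient cells differed in these genes. Replicate 2 was lower than replicate 1 in 84 of the 94 members, with a median difference of -0.30. Over all genes replicate 2 was lower in 52.2% with a median of -0.02, and over the 1957 genes with a mean level above 11, near the members' own level, the median was 0.04. The members' median SD was 0.22 in this group and 0.0386 to 0.0439 in the other 3, whose median differences were -0.06 to 0.01. Over all genes the median SD was 0.129 in this group and 0.0649 to 0.0662 in the other 3. The wider spread of this group was thus not confined to the members. The median difference was -0.10 over the 4 subunits of complex II, of which Sdha was higher on replicate 2. The fit below pools each gene's spread over the groups, so the counts and medians of members that use these 2 arrays are also given without each of them. Which of the 2 arrays is nearer to the condition was not tested.

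**Figure D2:**
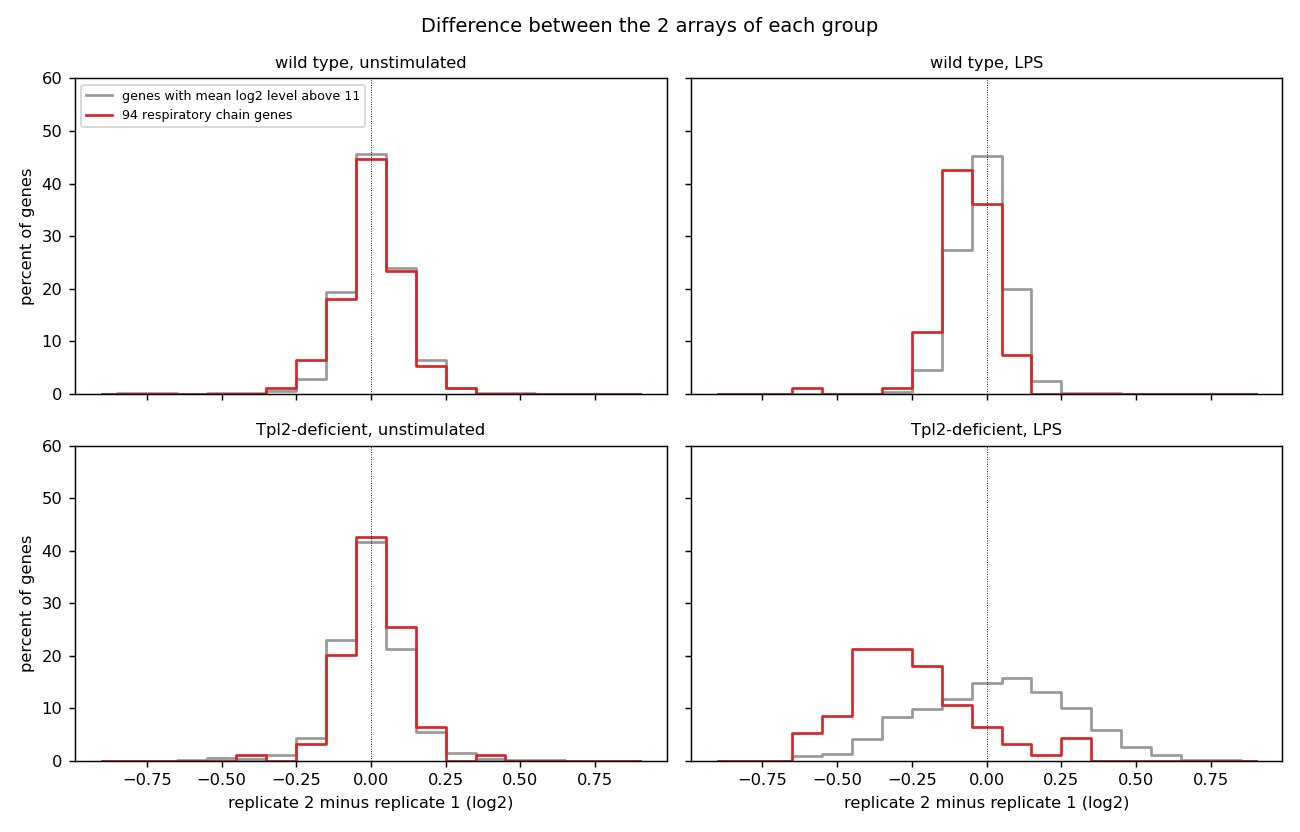
Share of genes (y axis, percent) by replicate 2 minus replicate 1 on the log2 scale (x axis, bins of 0.1, outermost bins holding all beyond) for the 94 members and for the 1957 genes with a mean level above 11, by group. In LPS-treated Tpl2-deficient cells the members are shifted below 0 (median -0.30 against 0.04), and in LPS-treated wild-type cells they are shifted slightly the same way (median -0.06 against -0.01, lower in 75.5% against 56.1%).

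The first comparison asked what LPS did to the respiratory chain in wild-type macrophages. Most of the chain fell: 61 members were lower and 5 higher (limma, with p adjusted by Benjamini-Hochberg across the 18193 genes and a threshold of 0.05), where 30.9% of all genes were lower and 21.3% higher. The members' median change was -0.43 on the log2 scale and that of all genes 0.04. The arrays did not overlap for 82 members that were lower and 8 that were higher, against 39.2% and 41.1% of all genes. Falls were modest in size, since 7 members fell at least 2-fold. With any 1 of the 4 wild-type arrays left out, 41 of the 61 lower calls held each time. Brighter genes fell more often in general: among genes above the median level 65 of 88 members (73.9%) and 53.2% of all such genes were lower, with medians of -0.46 and -0.32, a narrower gap than over all genes. Among the 63 members with a mean level above 11, a level chosen after seeing the data, 52 were lower, where 47.3% of the genes above that level were.

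Complex I fell most widely among the subunits. All 6 measured core subunits and 22 of 28 accessory subunits were lower, 3 accessory subunits were higher, and Ndufa2, Ndufa5 and Ndufb6 did not pass. The largest falls in the core were in Ndufs7 and Ndufs8, which carry the iron-sulphur clusters that hand electrons to ubiquinone. Ndufs7 read 12.04 and 12.00 on the 2 arrays without LPS and 10.94 ± 0.09 (SD, n = 2) with it, and fell by 1.08 ± 0.11 (log2 ± standard error of the fit, adjusted p = 9.81e-06). Ndufs8 read 12.33 and 12.41 and then 11.38 and 11.24, and fell by 1.06 ± 0.13 (adjusted p = 4.24e-05). Neither gene's arrays overlapped between treatments. Ndufs1 and Ndufv1, of the arm that takes up NADH, changed less, by -0.50 ± 0.12 and -0.59 ± 0.10.

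Among the accessory subunits Ndufa6, which belongs to the LYR-motif proteins around complex I's ubiquinone arm, fell furthest, from 12.27 and 12.26 to 11.08 ± 0.11 (SD, n = 2; -1.19 ± 0.13, adjusted p = 1.77e-05). The other lower accessory subunits changed by -0.29 (Ndufa9) to -0.85 (Ndufb11). Ndufb1, a small accessory subunit of the membrane arm, went the other way, from 9.59 and 9.43 to 11.60 and 11.53, a 4.16-fold rise (2.06 ± 0.12, adjusted p = 8.99e-08). It was the one member that rose at least 2-fold, and it rested on 1 probe set. Ndufs4, an accessory subunit of the NADH arm, rose from 9.63 and 9.65 to 10.07 and 10.05 (0.42 ± 0.14, adjusted p = 0.0289), a call that was lost whenever 1 wild-type array was left out. Another of its 4 probe sets went down by 0.37, and the remaining ones, at mean levels of 7.21 and 6.74, went up by 0.51 and 0.68. The third rise, of Ndufb4 (0.42), lies at levels where its probe set did not show expression.

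Complex I assembly factors followed the subunits, with 6 of 8 lower, none higher, and a median of -0.55. Ndufaf7, a methyltransferase that modifies a core subunit during assembly, fell from 8.05 and 8.22 to 7.23 and 6.68 (-1.18 ± 0.16, adjusted p = 9e-05). Ndufaf1 and Ndufaf4, which act on the membrane arm and the ubiquinone arm, changed by -0.53 ± 0.10 and -0.58 ± 0.11, and both passed. Ndufaf5 and Ndufaf8 did not pass.

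In complex II, 3 of 4 subunits were lower. Sdhb, the iron-sulphur subunit, read 12.81 and 12.84 without and 11.98 and 11.90 with LPS, and fell by 0.89 ± 0.10 (adjusted p = 2.2e-05). Sdha, the flavin subunit that binds succinate, read 11.92 and 11.90 and then 11.45 and 11.42 (-0.47 ± 0.12, adjusted p = 0.00515). Sdhd, a membrane anchor, read 11.71 and 11.80 and then 11.38 and 11.51 (-0.31 ± 0.10, adjusted p = 0.0258), and its call was lost without either unstimulated array or without LPS replicate 1. Sdhc, the other anchor, did not pass on its brighter probe set (-0.19 ± 0.10, adjusted p = 0.142), and its second probe set, of nearly the same level, gave -0.49 (adjusted p = 0.00277).

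The largest falls of the whole set, in Sdhaf1 and Sdhaf3, were in assembly factors of complex II, small proteins that mature its subunits. Ndufa6 (-1.19) and Ndufaf7 (-1.18) fell slightly further than the next of these factors, Sdhaf4. Sdhaf1, which helps deliver iron-sulphur clusters to Sdhb, read 9.65 and 9.71 in unstimulated wild-type cells and 7.35 and 7.40 with LPS, a 4.94-fold fall (-2.30 ± 0.10, adjusted p = 9.56e-09). Sdhaf3, which acts with Sdhaf1 on Sdhb, went from 8.12 and 8.18 to 6.68 and 6.76 (-1.43 ± 0.15, adjusted p = 7.1e-06). Sdhaf4, which binds Sdha before it joins Sdhb, went from 9.98 and 10.04 to 8.90 and 8.84 (-1.14 ± 0.12, adjusted p = 7.16e-06). All LPS arrays lay below all unstimulated arrays for these 3 genes. Averaged over its probe sets, Sdhaf3 changed by -0.69. Its other probe set lay far below the array median, at a mean level of 3.70, and changed by 0.05. Sdhaf2, which serves the attachment of flavin to Sdha, read 10.44 and 10.34 and then 10.32 and 10.29, and did not pass (-0.08 ± 0.10, adjusted p = 0.491).

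**Figure D3:**
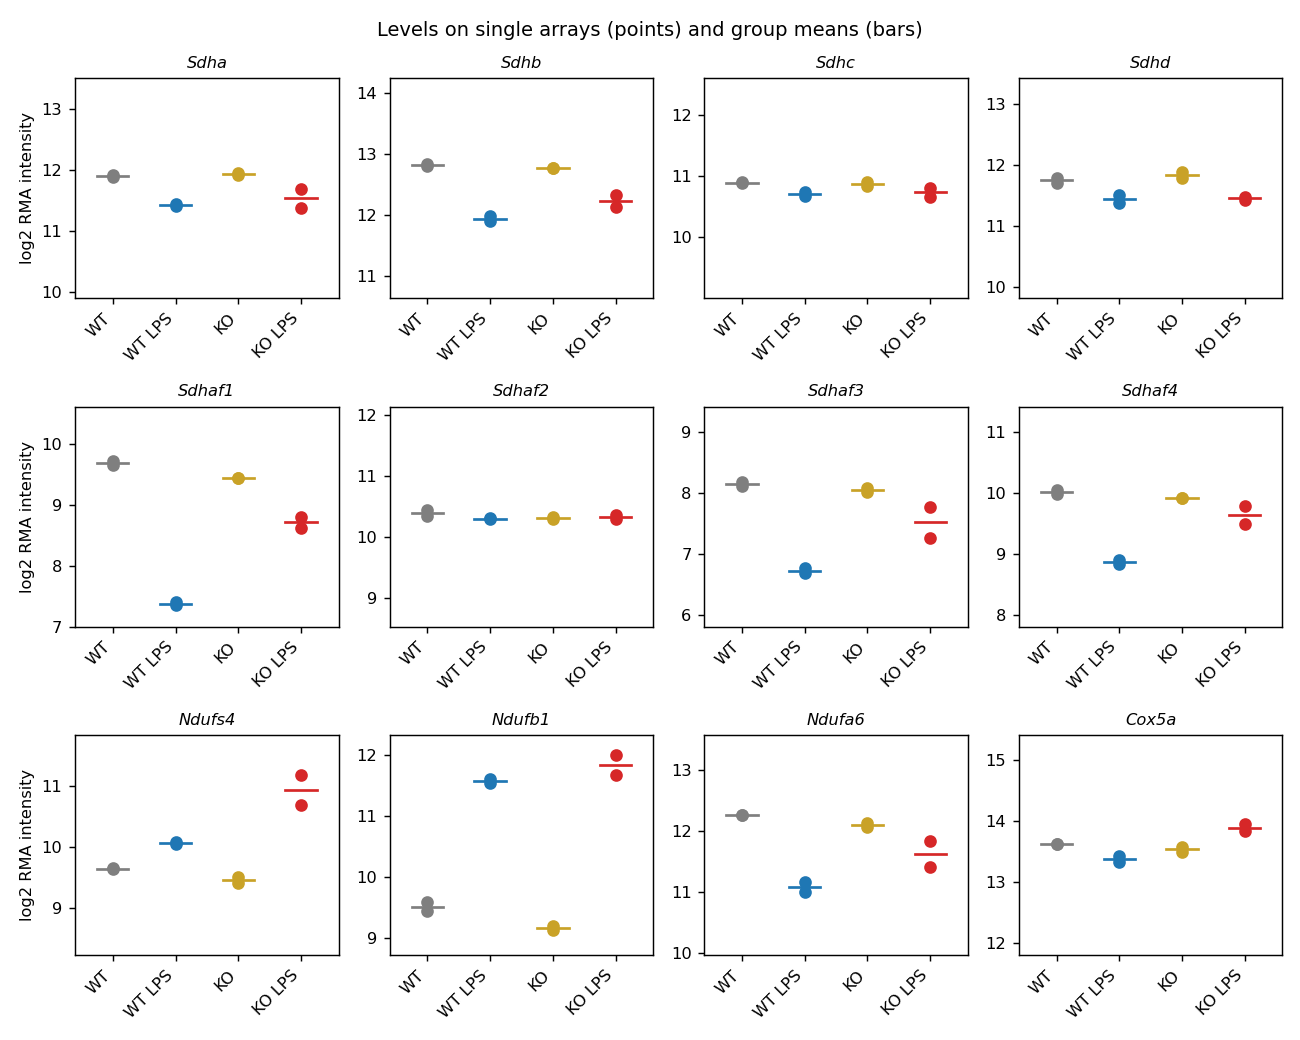
Log2 RMA intensity (y axis, the same span of 3.6 units in each panel) of complex II subunits, complex II assembly factors and 4 further members on single arrays (points, 2 per group) with group means (bars). Sdhaf1, Sdhaf3 and Sdhaf4 fall steeply with LPS in wild type and less in Tpl2-deficient (KO) cells, while Sdha falls by 0.47 and 0.40 and Sdhd by 0.31 and 0.37 in the 2 genotypes.

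Complex III had 5 of 8 genes lower and none higher (median -0.49). Uqcrc1, a core protein, read 12.49 and 12.52 without and 11.95 and 11.98 with LPS (-0.54 ± 0.10, adjusted p = 0.00099), and the small subunit Uqcr11 fell by 0.76 ± 0.14 (adjusted p = 0.000825). Uqcrfs1, the Rieske iron-sulphur protein, read 11.51 and 11.56 and then 11.46 and 11.44 and did not pass (-0.09 ± 0.10, adjusted p = 0.479). Complex IV had 7 of 10 genes lower and none higher (median -0.36). Cox7a2l, which takes part in joining complexes III and IV, fell by 0.85 ± 0.10 (adjusted p = 1.74e-05), from 13.08 and 13.05 to 12.27 and 12.17. Cox4i1, a regulatory subunit present in most tissues, changed by -0.38 ± 0.10 (adjusted p = 0.00811). Cox5a did not pass (-0.24 ± 0.10, adjusted p = 0.0613).

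Complex V had the smallest median among the complexes (-0.24), with 8 of 17 genes lower and none higher. The catalytic subunits did not pass: Atp5a1 read 13.17 and 13.18 without and 12.92 and 12.95 with LPS (-0.24 ± 0.11, adjusted p = 0.0903), and Atp5b read 12.93 on both arrays and then 12.88 and 12.87 (-0.05 ± 0.11). The falls were in the central stalk genes Atp5c1 (-0.71), Atp5d (-0.58) and Atp5e (-0.61), the c-ring genes Atp5g1 (-0.42) and Atp5g2 (-0.85), and Atp5h (-0.41), Atp5j2 (-0.47) and Atp5l (-0.33). None of the 7 tissue-restricted isoforms of complex IV was lower. Cox4i2, an isoform of lung and of low oxygen, rose from 6.86 and 7.02 to 7.47 and 7.40 (0.50 ± 0.18, adjusted p = 0.0376) and the testis isoform Cox8c rose by 0.38 ± 0.13 (adjusted p = 0.0299). Cox6a2 and Cox7a1 did not pass (0.17 and -0.12). The Cox4i2 and Cox8c calls were lost when single wild-type arrays were left out. Ndufa4, now counted with complex IV, changed by -0.43 ± 0.12 (adjusted p = 0.0115) and its paralogue Ndufa4l2 by 0.06 ± 0.11, which did not pass.

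Other probe sets of these genes mostly pointed the same way. Of 62 further probe sets of the called genes that lay above the array median, 53 had the same sign as the one used, and 3 passed with the opposite sign. Those were dim probe sets of Ndufb9 (0.31), Ndufs4 (-0.37) and Uqcrq (0.33).

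The second comparison asked the same of Tpl2-deficient macrophages. Here 19 members were lower and 6 higher, where 25.8% of all genes were lower and 16% higher, so the share of lower members was near that of all genes and the share of higher members below it. The median over members was -0.05 and over all genes 0.00. The arrays did not overlap for 32 lower and 11 higher members, against 35.5% and 31.2% of all genes. Centring on the hybridisation spike-ins, which moved the median of all genes to -0.24, gave 32 lower (34%) and 3 higher (3.19%), where 36% and 9.22% of all genes then passed. Among the 88 members above the median level 22 were lower, where 45.9% of such genes were. Without LPS replicate 1, 32 members were lower (34%, against 25.7% of all genes) and the median was -0.21. Without LPS replicate 2, 16 were lower and 14 higher (17% and 14.9%, against 26.9% and 19.2% of all genes) and the median was 0.08, so its sign turned with the array left out. The lower count was 6 and 12 without unstimulated replicates 1 and 2, where 20.9% and 21.9% of all genes were lower.

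The members that fell in Tpl2-deficient cells in every such leave-out were Sdhaf1, Sdhb, Ndufs8, Ndufaf7 and Cox7a2l. Ndufaf7 read 8.09 and 7.85 without and 7.03 and 6.94 with LPS (-0.98 ± 0.16, adjusted p = 0.000457). Ndufs8 read 12.20 and 12.18 and then 11.72 and 11.30 (-0.68 ± 0.13, adjusted p = 0.00143). Cox7a2l read 12.94 and 12.93 and then 12.51 and 12.49 (-0.44 ± 0.10, adjusted p = 0.00293). In these 3 genes both LPS arrays lay below both unstimulated arrays. By complex, 4 of 6 core and 4 of 28 accessory complex I subunits were lower, 1 of 8 complex I assembly factors, 3 of 4 complex II subunits, 2 of 4 complex II assembly factors, 0 of 8 complex III genes (limma; 0 higher, and 1 at an unadjusted p under 0.05), 2 of 10 complex IV genes and 3 of 17 complex V genes.

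Complex II subunits fell here too. Sdha read 11.95 and 11.93 without and 11.39 and 11.70 with LPS (-0.40 ± 0.12, adjusted p = 0.0159), Sdhb 12.77 on both arrays and then 12.33 and 12.14 (-0.53 ± 0.10, adjusted p = 0.00139), and Sdhd 11.89 and 11.79 and then 11.49 and 11.44 (-0.37 ± 0.10, adjusted p = 0.0117). Every LPS array lay below every unstimulated array in all 3. The Sdha call was lost without either unstimulated array or LPS replicate 1, and the Sdhd call without unstimulated replicate 1. Sdhc did not pass (-0.14 ± 0.10).

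Of the complex II assembly factors, Sdhaf1 read 9.44 and 9.43 and then 8.80 and 8.62 (-0.73 ± 0.10, adjusted p = 0.000121), and Sdhaf3 read 8.08 and 8.02 and then 7.77 and 7.26 (-0.53 ± 0.15, adjusted p = 0.0116), a call lost without unstimulated replicate 1 and on the average of its probe sets (-0.23, adjusted p = 0.1). Sdhaf4 read 9.92 and 9.91 and then 9.79 and 9.49, which did not pass (-0.27 ± 0.12, adjusted p = 0.0842).

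Rises in Tpl2-deficient cells were led by Ndufb1, which read 9.13 and 9.19 without and 11.99 and 11.67 with LPS, a 6.37-fold rise (2.67 ± 0.12, adjusted p = 1.14e-08). Ndufs4 read 9.41 and 9.51 and then 11.18 and 10.69, a 2.77-fold rise (1.47 ± 0.14, adjusted p = 5.8e-06). The muscle isoform Cox7a1 went from 6.48 and 6.39 to 7.38 and 6.80 (0.66 ± 0.17, adjusted p = 0.00697), starting from about the array median, and Ndufaf5, an assembly factor that hydroxylates Ndufs7, from 7.53 and 7.32 to 7.96 and 7.93 (0.52 ± 0.11, adjusted p = 0.00174). Atp5md, a small subunit of complex V dimers, went from 10.74 and 10.80 to 11.50 and 10.93 (0.44 ± 0.15, adjusted p = 0.0396), and Cox5a, a complex IV subunit, from 13.57 and 13.49 to 13.94 and 13.83 (0.36 ± 0.10, adjusted p = 0.0133). The Atp5md call was lost without LPS replicate 1 or either unstimulated array, and the Cox5a call without unstimulated replicate 2.

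**Figure D4:**
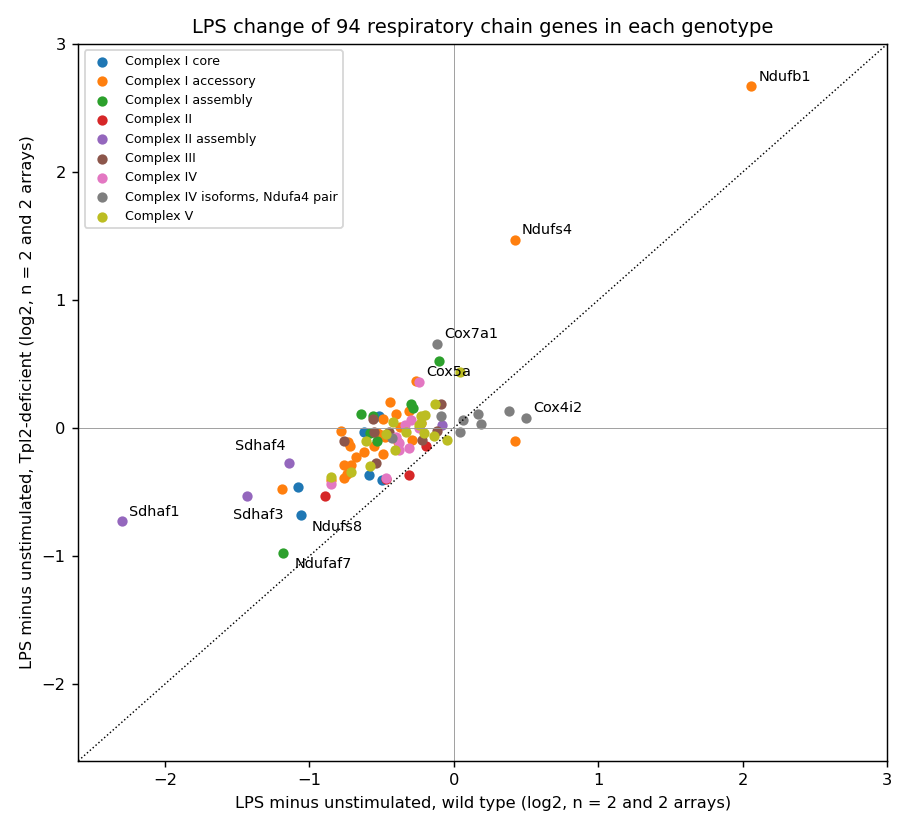
LPS change of the 94 members on the log2 scale in wild-type (x axis) and Tpl2-deficient macrophages (y axis), coloured by complex, with the dotted line marking equal change. Most points lie left of 0 and above the line, Sdhaf1 is furthest left (-2.30 and -0.73), complex II subunits lie near the line except Sdhb, and Ndufb1 and Ndufs4 rise in both.

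Without LPS no member differed between the genotypes by the test. The test called 0 members higher and 0 lower (limma; 9 at an unadjusted p under 0.05), where 0.154% of all genes were higher and 0.346% lower. The members' median was -0.11 and 12 of 94 were above 0, while all genes had a median of -0.00. The arrays did not overlap for 65 lower and 4 higher members, against 29.2% and 23.9% of all genes. Centred on the spike-ins, which moves all genes of an array alike, the members' median was 0.01 and that of all genes 0.12. The widest single difference was in Ndufs5, an accessory subunit of complex I, which read 10.88 and 10.85 in wild-type and 10.44 and 10.59 in Tpl2-deficient cells (-0.35 ± 0.12, adjusted p = 0.263), and Ndufb1 was as far apart (-0.35 ± 0.12, adjusted p = 0.259).

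With LPS some members were higher in Tpl2-deficient than in wild-type macrophages, and most did not pass. The test called 13 members higher and 0 lower (45 at an unadjusted p under 0.05), where 8.01% of all genes were higher and 5.73% lower, and the members' median was 0.27 against 0.02 for all genes. The arrays did not overlap for 64 higher members and 1 lower member, against 26.9% and 19.7% of all genes. The count rested on single arrays. Without Tpl2-deficient LPS replicate 2, 58 members were higher (61.7%, against 9.57% of all genes) and the median was 0.41. Without replicate 1, 8 were higher (8.51%, below the 9.84% of all genes) and the median was 0.12. Without wild-type LPS replicates 1 and 2, 6 and 4 were higher (6.38% and 4.26%, against 4.16% and 3.92% of all genes). It was 29 of 88 among genes above the median level, where 17.5% of genes were higher.

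Complex II assembly factors were again foremost by median (0.79), with 3 of 4 higher. Sdhaf1 was 2.52-fold higher (1.34 ± 0.10, adjusted p = 7.17e-06), Sdhaf3 was higher by 0.80 ± 0.15 (adjusted p = 0.00346) and Sdhaf4 by 0.77 ± 0.12 (adjusted p = 0.000945). Averaged over its probe sets, the dim one included, Sdhaf3 was higher by 0.38, which passed. Of the 4 complex II subunits none passed (limma; 1 at an unadjusted p under 0.05), and Sdha (0.11 ± 0.12), Sdhc (0.03 ± 0.10) and Sdhd (0.02 ± 0.10) lay close to 0, with Sdhb at 0.30 ± 0.10 (adjusted p = 0.0894). A dimmer probe set of Sdha (mean level 6.91) was higher by 0.57 and passed (limma on each probe set, adjusted p = 0.0141). Further Sdha probe sets gave 0.24 and 0.13 and did not pass. Ndufs4 was higher by 0.87 ± 0.14 (adjusted p = 0.00173), and its 3 other probe sets gave 0.85, 0.99 and 1.16. These 4 genes, Sdhaf1, Sdhaf3, Sdhaf4 and Ndufs4, kept their calls whichever LPS array was left out, and no other member did.

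The other higher members were Ndufb3 (0.57), Ndufa6 (0.55), Cox5a (0.52), Uqcrh (0.51), Ndufs3 (0.46), Ndufaf3 (0.45), Ndufv2 (0.40), Ndufaf4 (0.40) and Ndufaf6 (0.34), so complex I and its assembly factors supplied 8 of the 13 calls with Ndufs4 included. Ndufb3 is an accessory subunit of the membrane arm, Uqcrh the hinge protein of complex III, Ndufs3 and Ndufv2 core subunits of complex I, and Ndufaf3 and Ndufaf4 partners in building its ubiquinone arm. Cox5a read 13.42 and 13.32 in wild-type and 13.94 and 13.83 in Tpl2-deficient cells with LPS, without overlap. In complex V none of 17 genes passed (median 0.24, limma; 6 at an unadjusted p under 0.05).

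The difference of the LPS responses was tested directly, as the response in Tpl2-deficient minus that in wild-type cells. It was above 0 for 15 members and below 0 for 0 (limma; 48 at an unadjusted p under 0.05), where 5.72% of all genes passed above and 2.87% below, with a median of 0.38 over members and 0.01 over all genes. Sdhaf1 differed most (1.58 ± 0.14, adjusted p = 7.52e-05), then Ndufs4 (1.05 ± 0.20, adjusted p = 0.00864), Sdhaf3 (0.90 ± 0.21, adjusted p = 0.021), Sdhaf4 (0.86 ± 0.16, adjusted p = 0.00792) and Ndufb10, an accessory subunit of the membrane arm (0.76 ± 0.20, adjusted p = 0.0401). For Sdhaf1, Sdhaf3, Sdhaf4 and Ndufb10 this was a smaller fall, and for Ndufs4 a larger rise. The calls of Sdhaf1, Sdhaf4 and Ndufs4 held whichever array was left out, and those of the other 12 members did not. The Sdhaf3 difference was 0.46 on the average of its probe sets, the dim one included (adjusted p = 0.0838). Without Tpl2-deficient LPS replicate 2, 57 members passed (60.6%, against 8.62% of all genes) and the median was 0.52. Without replicate 1, 12 passed (12.8%, against 9.29%) and the median was 0.24. The count was 4 centred on the spike-ins (4.26%, against 2.57%) and 8 after repeated quantile normalization (8.51%, against 4.09%). It was 3 without either unstimulated wild-type array (3.19%, against 2.8% and 2.4%), and 4 and 3 without unstimulated Tpl2-deficient replicates 1 and 2 (4.26% and 3.19%, against 2.88% and 2.23%). Without wild-type LPS replicates 1 and 2 it was 5 and 3 (5.32% and 3.19%, against 3.18% and 2.5%). In several of these settings the share of members was thus near that of all genes.

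Of the complex II subunits none passed for the difference of responses (limma; 1 at an unadjusted p under 0.05). The values were 0.07 ± 0.16 for Sdha, 0.36 ± 0.15 for Sdhb, 0.05 ± 0.14 for Sdhc and -0.06 ± 0.14 for Sdhd, and their adjusted p-values were 0.17 or above. On the Sdha probe set of mean level 6.91 the difference was 0.61 and did not pass (limma on each probe set, adjusted p = 0.0762). By role, the difference passed in 3 of 6 core subunits of complex I (Ndufs3, Ndufs7 and Ndufv2), 4 of 28 accessory subunits (Ndufa6, Ndufb3, Ndufb10 and Ndufs4), 3 of 8 complex I assembly factors (Ndufaf2, Ndufaf3 and Ndufaf5), 3 of 4 complex II assembly factors, 1 of 8 genes of complex III (Uqcrq), 1 of 10 of complex IV (Cox5a) and none of 17 of complex V (5 at an unadjusted p under 0.05). Whether the subunits of complex II differ from their assembly factors in this respect was not tested.

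Some members share letters in their promoters, which the rule of membership did not use. Promoter windows of 250 bases before and 50 bases after a transcript start (RefSeq, build GRCm38.p6) were held for 78 of the 94 members. The consensus of the transcription factor NRF1, a regulator known from respiratory genes, was searched as GCGC, any base, then TGCGC, and the core of GABP (NRF2) and other ETS factors as CCGGAAG, both on either strand. NRF1 letters were in 19 of 78 members (24.4%) and in 5.19% of all 27025 genes in the table. ETS letters were in 22 members (28.2%) and in 9.93% of all genes. Among the 56 members with a window that fell with LPS in wild type, 13 held the NRF1 and 16 the ETS letters, and among the 22 others 6 and 6. A match is a string of letters, not a site shown to be bound.

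The 150 bases before the start are given for complex II genes and others that behaved differently, with motif letters in capitals, each on its gene's own strand. Sdha and Sdhd fell in both genotypes, and Ndufa8 (-0.76 in wild type and -0.39 in Tpl2-deficient cells) did as well. Sdhaf1 fell most, and Ndufs4 rose.
Sdha, chr13:74350241-74350390, minus strand: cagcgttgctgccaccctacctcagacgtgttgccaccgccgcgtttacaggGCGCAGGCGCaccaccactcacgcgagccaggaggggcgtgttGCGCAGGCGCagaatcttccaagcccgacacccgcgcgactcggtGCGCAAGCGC
Sdhd, chr9:50603850-50603999, minus strand: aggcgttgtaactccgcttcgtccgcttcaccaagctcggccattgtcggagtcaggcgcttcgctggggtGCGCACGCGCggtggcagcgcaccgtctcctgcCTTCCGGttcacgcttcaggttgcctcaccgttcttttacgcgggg
Ndufa8, chr2:36049339-36049488, minus strand: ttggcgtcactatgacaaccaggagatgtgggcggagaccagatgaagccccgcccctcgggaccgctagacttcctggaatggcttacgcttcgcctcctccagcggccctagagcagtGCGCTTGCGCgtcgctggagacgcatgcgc
Sdhaf1, chr7:30322376-30322525, minus strand: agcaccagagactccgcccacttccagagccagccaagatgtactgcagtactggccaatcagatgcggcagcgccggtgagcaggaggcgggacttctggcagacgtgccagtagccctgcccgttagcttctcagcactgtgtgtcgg
Ndufs4, chr13:114388095-114388244, minus strand: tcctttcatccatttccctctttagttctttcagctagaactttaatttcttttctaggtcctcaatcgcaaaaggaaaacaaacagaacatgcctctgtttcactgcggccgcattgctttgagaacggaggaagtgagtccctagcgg
The Sdha stretch holds 3 NRF1 matches, the Sdhd stretch 1 NRF1 and 1 ETS match, and the Ndufa8 stretch 1 NRF1 match. In the printed Sdhaf1 and Ndufs4 stretches neither string occurs, which says only that these letters are not in these 150 bases. The Sdhaf1 window of 300 bases does hold the ETS letters, just past the start, and Sdhaf1 is among the 22 members counted for them. The printed genes are examples and do not sort the letters by response. Sdhaf3, Sdhaf4 and Ndufa6, whose responses differed between the genotypes, hold the NRF1 letters in their windows. Sdhb, which fell in both genotypes, holds the ETS but not the NRF1 letters. Whether the letters go with the response was not tested.

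Other mitochondrial genes, listed by function with earlier results of these data known, are given for comparison. Of all genes 30.9% were lower and 21.3% higher with LPS in wild type, and 25.8% and 16% in Tpl2-deficient cells. Between genotypes with LPS 8.01% were higher and 5.73% lower, and 5.72% and 2.87% passed above and below 0 for the difference of responses. No list was tested against these shares. The mitochondrial ribosome, which translates the subunits encoded in the organelle, had 45 of 76 genes lower and 4 higher with LPS in wild type (median -0.42), and 18 lower and 20 higher in Tpl2-deficient cells (median 0.00). The lower share in Tpl2-deficient cells was near that of all genes. With LPS, 16 of its genes were higher and 2 lower in Tpl2-deficient than in wild-type cells, and the responses differed upward in 17 and downward in 0 (limma; 56 in either direction at an unadjusted p under 0.05). Mrpl41 fell most in wild type (-2.37) and Mrpl52 rose most (0.85). The citric acid cycle had 11 of 16 genes lower and 1 higher in wild type (median -0.48) and 7 lower and 1 higher in Tpl2-deficient cells (median -0.25), with Idh3g (-1.23), Idh2 (-1.16) and Fh1, the fumarase (-1.06), falling most in wild type.

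Assembly factors of the other complexes were mixed. Those of complex IV outside the prefixes had 7 of 19 lower and 6 higher in wild type and 4 lower and 9 higher in Tpl2-deficient cells. The copper chaperone Sco1 rose in both (1.38 and 2.12) while its relative Sco2 fell in both (-1.90 and -1.94), and Coa6, also in copper delivery, fell more in wild type (-2.20) than in Tpl2-deficient cells (-1.17), a difference that passed (1.03). Assembly factors of complexes I, III and V outside the prefixes had 12 of 17 lower and 1 higher in wild type and 7 lower and 1 higher in Tpl2-deficient cells. Bcs1l, which inserts the Rieske protein into complex III, changed by -1.32 and -0.45, a difference that passed (0.87), while Uqcrfs1 itself had not passed.

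Among the electron carriers, cytochrome c (Cycs) rose with LPS from 12.22 and 12.30 to 13.73 and 13.65 in wild type (1.43) and from 12.07 and 12.36 to 13.61 and 13.16 in Tpl2-deficient cells (1.17), against the direction of most subunits. Cyc1, the cytochrome of complex III, changed by -0.28 in wild type, which passed, and by -0.09 in Tpl2-deficient cells, which did not. Ubiquinone synthesis had 7 of 10 genes lower and 1 higher in wild type and 4 lower and 2 higher in Tpl2-deficient cells. Coq9 fell by 1.73 in wild type and by 0.95 in Tpl2-deficient cells, and the difference passed (0.78). Import and carrier genes had 12 of 19 lower and 4 higher in wild type and 9 lower and 4 higher in Tpl2-deficient cells, with 0 passing for the difference of responses (limma; 3 at an unadjusted p under 0.05, range -0.21 to 0.52).

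**Figure D5:**
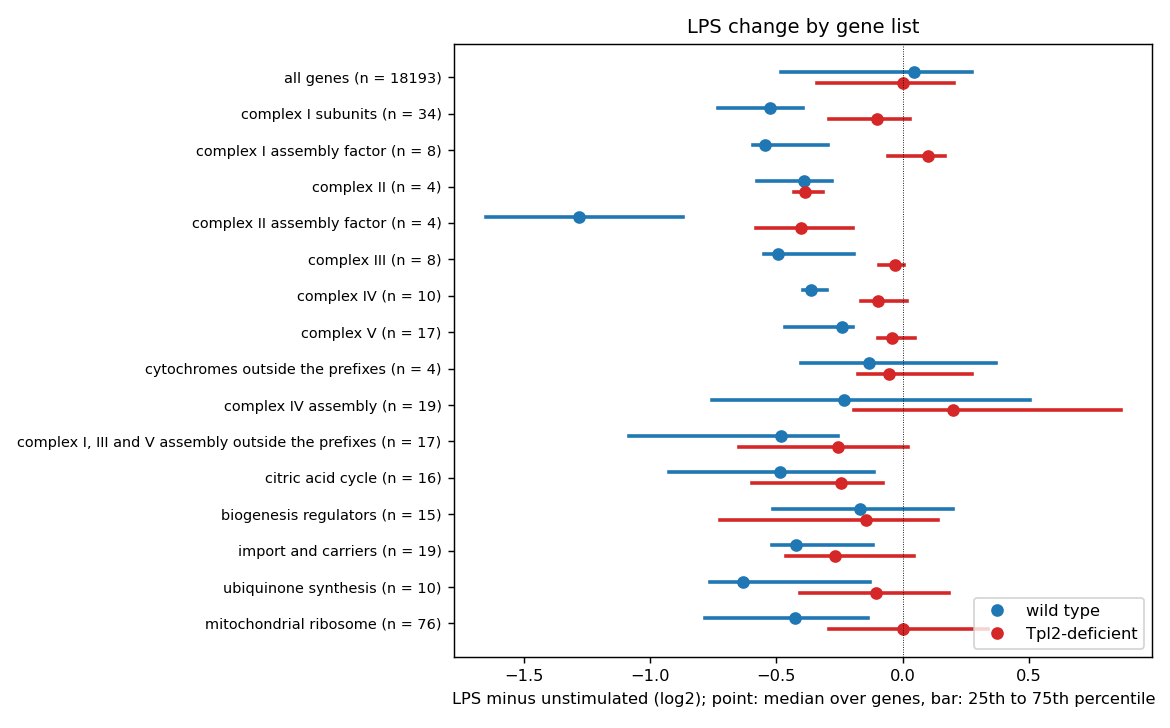
LPS change on the log2 scale (x axis) by gene list (y axis, with the number of genes) in wild-type (blue) and Tpl2-deficient macrophages (red); points are medians over genes and bars run from the 25th to the 75th percentile over genes, which is not an error. The wild-type medians lie below 0 in each list shown other than all genes. For the 4 complex II subunits the 2 medians coincide (-0.39 and -0.38), although Sdhb changed by -0.89 in wild type and -0.53 in Tpl2-deficient cells.

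Regulators of mitochondrial gene expression had 4 of 15 genes lower and 2 higher in wild type and 6 lower and 3 higher in Tpl2-deficient cells. Both wild-type shares lay below those of all genes (30.9% lower and 21.3% higher). In Tpl2-deficient cells both lay above them (25.8% and 16%), on few genes. With LPS 2 of them were higher and 3 lower in Tpl2-deficient than in wild-type cells. Ppargc1b, a coactivator of respiratory genes, read 8.83 and 8.79 without and 9.04 and 8.97 with LPS in wild-type cells, which did not pass (0.20). In Tpl2-deficient cells it read 8.89 and 8.67 and then 10.27 and 10.31, a rise of 1.51. With LPS it was higher in Tpl2-deficient cells by 1.28, without overlap of the arrays, and the difference of responses (1.31) passed. Gabpb1, a subunit of GABP, rose by 0.77 in wild type and 1.53 in Tpl2-deficient cells, and that difference passed as well (0.76). The 3 that were lower with LPS in Tpl2-deficient cells were Myc, a growth regulator (-0.76, adjusted p = 0.00346), Pprc1, a relative of Ppargc1b (-0.55, adjusted p = 0.0272), and Polg, the mitochondrial DNA polymerase (-0.49, adjusted p = 0.0261). Myc read 8.44 and 8.40 in wild-type and 7.47 and 7.85 in Tpl2-deficient cells with LPS, without overlap. Nrf1 (0.21 and -0.14) and Tfam, the packaging factor of mitochondrial DNA (-0.20 and 0.26), did not pass in either genotype, Esrra, a nuclear receptor of respiratory genes, rose in both (0.50 and 0.79), and Ppargc1a lay below the array median in every group.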

How the data were processed

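RNA was hybridised to 8 arrays, 2 in each of 4 groups taken from the labels. The deposited values are log2 intensities, made by the authors with RMA (GCOS is also named) per the submitters' processing notes, and no further normalization was applied. RMA aligns the distributions of the arrays, so a change is relative to the bulk of genes. The platform annotation gave exactly 1 symbol to 34958 of 45101 probe sets, several to 932 and none to 9211, and all 94 members matched RefSeq. Arrays have no read depth, and their number limits the precision. The model was limma 3.58.1 under R 4.3.3 (lmFit, eBayes, group means, 4 residual and 6.87 prior degrees of freedom), checked on simulated data. Members, lists and tests were chosen with earlier results of these data known. Per comparison the rule for naming took the 5 largest rises and falls among called members whose arrays did not overlap, and a fixed set of genes. Other called members, and the rest of complexes II and V, were named after their values were seen. Replicate numbers were not taken as pairs: deviations from group means correlated at -0.12 to 0.1 between same-numbered arrays. The alternatives were the choice of probe set, scaling, filter on level, variance model, arrays in the fit, a replicate block, a minimum change of 1.5-fold, and each array left out in turn.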

Additional observations from a re-analysis of the deposited data

Results flagged for a closer look

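The LPS response differed between Tpl2-deficient and wild-type macrophages, by a test of the difference itself (limma, adjusted p under 0.05 over all genes), in 15 members, all upward. Of all genes 5.72% passed above 0 and 2.87% below. Only Sdhaf1, Sdhaf4 and Ndufs4 kept their calls whichever array was left out. The log2 differences were 1.58 for Sdhaf1, 1.05 for Ndufs4, 0.90 for Sdhaf3, 0.86 for Sdhaf4, 0.76 for Ndufb10 and Ndufaf3, 0.71 for Ndufa6, 0.65 for Ndufaf2, 0.63 for Ndufb3 and Uqcrq, 0.62 for Ndufs7 and Ndufaf5, 0.61 for Ndufs3, and 0.60 for Ndufv2 and Cox5a. Sdhaf1 had the smallest adjusted p (7.52e-05) and Ndufaf2 the largest (0.0484). The 2 LPS-treated Tpl2-deficient arrays differed by a median of -0.30 in the members, and the part of that in these 15 results was not tested.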

How the results depend on the processing

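The calls of Sdhaf1 and of Ndufb1 for LPS in wild type, and of Sdhaf1 and Ndufs4 between genotypes with LPS, held in each of the 21 alternatives run for them. The counts moved as follows, and the causes were not tested unless the setting itself changes what is counted. The share of all genes that passed moved with the setting or the array left out too, and filters on level also changed the members tested. A count alone is thus not a shift of the members against all genes. With each probe set on its own, 20.7% of all probe sets were higher and 27.1% lower for LPS in wild type. In Tpl2-deficient cells these shares were 15.9% and 23.1%. For LPS in wild type, higher members numbered 11 with each probe set on its own (of 185), 1 centred on the spike-ins, 3 among genes above the median level, 0 above level 11 (added after seeing the data) and 1 with a 1.5-fold minimum, and lower members 109 with each probe set and 26 with the 1.5-fold minimum. For LPS in Tpl2-deficient cells, higher members numbered 13 with each probe set, 3 with spike-ins, 2 above level 11 and 3 with the 1.5-fold minimum, and lower members 35, 32 with spike-ins and 3 with the minimum. Between genotypes with LPS, higher members numbered 29 above the median level, 20 above level 11, 27 with a mean-variance trend, 7 with only the 4 arrays compared and 4 with the minimum. For the difference of responses they numbered 8 with repeated quantile normalization, 4 with spike-ins, 24 above the median level and 25 with the trend. With the replicate block 1 member became lower between genotypes with LPS (Ndufb4, -0.41, adjusted p = 0.0469), and the higher counts there and for the difference were 12 and 14; the crossed pairing, added after seeing the data, gave 6 higher and 18 lower for LPS in Tpl2-deficient cells.

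Leaving out each array in turn, which assumes that a lone array varies like the other groups, gave 1 to 5 higher and 43 to 72 lower for LPS in wild type, 4 to 14 and 6 to 32 for LPS in Tpl2-deficient cells, 4 to 58 higher between genotypes with LPS, and 3 to 57 for the difference. Without stimulation it gave 0 to 0. Signs turned with the probe set: averaged over probe sets Cyb5b, a cytochrome of the outer membrane, changed by 0.18 and 0.42 in the 2 genotypes. Without the _x_at and _s_at probe sets the LPS change in wild type was 0.47 for Ndufa12, 0.22 for Ndufab1 and 0.33 for Uqcrq, whose difference of responses was -0.36. In Tpl2-deficient cells it was 0.05 for Cox7c. The probe sets then left were dimmer than those used in the main fit. Their mean levels were 5.78 against 12.24 for Ndufa12 and 8.66 against 11.54 for Ndufab1. For Uqcrq they were 6.99 against 11.87, and for Cox7c 5.61 against 7.60. Spike-in centring moved the median of all genes to -0.10 and -0.24 for LPS in wild-type and Tpl2-deficient cells, 0.12 and 0.05 between genotypes without and with LPS, and -0.08 for the difference, and members' medians to -0.58, -0.29, 0.01, 0.30 and 0.29.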
